A study of Canis lupus familiaris with 22 samples.

Results

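The Janus kinases and STAT factors carry the signal of cytokine receptors from the cell surface to the nucleus, and their probes were examined in the blood of dogs with canine atopic dermatitis (cAD) and of healthy dogs. The members were the transcript probes to which the array files give the gene name JAK1, JAK2, JAK3, TYK2, STAT2, STAT3, STAT4, STAT5B or STAT6. This rule found 14 probes among the 43603 different probes of the array, and they stood for 6 of the 9 genes, among 14227 gene names on the array. JAK1 had 5 probes, STAT3 had 4, STAT5B had 2, and JAK2, STAT2 and STAT6 had 1 each. JAK3, TYK2 and STAT4 were not analysed here.

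Blood was taken from 8 healthy control dogs (ctrl), from 7 dogs with cAD before treatment (0) and from the same 7 dogs after 6 months of allergen-specific immunotherapy (ASIT, 6 months). ASIT consisted of subcutaneous injections of extracts of the allergens to which a dog reacted in skin tests. The cAD dogs were privately owned, whereas the ctrl dogs were donors of a veterinary blood bank, and both groups held several breeds and both sexes, so that breed, age and sex varied within each group, and no untreated cAD group was followed over the same 6 months. RNA of each dog was labelled with Cy5 and hybridised, 1 array per sample, against a Cy3-labelled pool of RNA from 13 other healthy dogs. The values below are the log2 ratio of Cy5 to Cy3, so that 0 is the level of this common reference and a difference of 1 is a 2-fold change.

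When a cytokine binds its receptor, Janus kinases attached to the receptor chains phosphorylate each other and the receptor, and STAT proteins that dock there are phosphorylated in turn, pair up and enter the nucleus as transcription factors. JAK1 serves the receptors of interferons, of interleukin 4, of interleukin 31 and of other cytokines of allergy and itch, and inhibitors of Janus kinases are used against pruritus in dogs. Much of the activity of this pathway is set by phosphorylation, which RNA levels do not measure.

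The probes are numbered within each gene from the brightest to the dimmest. They are 60 bases long and were placed by the array design on the canFam3.1 build. In order of position on chromosome 5, JAK1 was read by probe 2 (chr5:45378591-45380085), probe 5 (chr5:45396262-45396989), probe 4 (chr5:45400137-45401107), probe 3 (chr5:45404158-45405889) and probe 1 (chr5:45408496-45408555). The first 4 of these lie over stretches of the genome longer than the probe, that is, their target is split in the genome, whereas probe 1 matches 60 bases without a gap. The sequences shown here are those of the JAK1 probes whose values lay furthest from the healthy dogs and 1 for each other gene, read 5′ to 3′ on the strand of the transcript.

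JAK1 probe 4: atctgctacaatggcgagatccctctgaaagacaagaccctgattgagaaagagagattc
JAK1 probe 5: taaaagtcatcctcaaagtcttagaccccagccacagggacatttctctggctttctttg
JAK2 probe 1: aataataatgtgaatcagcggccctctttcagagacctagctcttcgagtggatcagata
STAT2 probe 1: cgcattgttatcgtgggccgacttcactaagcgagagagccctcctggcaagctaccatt
STAT3 probe 3: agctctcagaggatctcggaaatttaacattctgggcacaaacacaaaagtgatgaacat
STAT5B probe 2: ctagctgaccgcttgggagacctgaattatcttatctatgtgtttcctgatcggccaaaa
STAT6 probe 1: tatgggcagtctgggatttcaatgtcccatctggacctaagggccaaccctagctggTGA

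The JAK2 probe lies on the plus strand at chr1:93435694-93435753, and the STAT2 probe on the minus strand at chr10:645979-646167, in a split target. STAT3 probe 3 lies at chr9:20601349-20601507, also split, and STAT5B probe 2 at chr9:20710706-20710765, so that STAT3 and STAT5B lie near each other on chromosome 9. The STAT6 probe lies on the minus strand at chr10:1233691-1233750. The capitals at its end mark a stop triplet, the only one in the first reading frame of this probe. STAT3 probes 1 and 2 share 54 bases of the genome and therefore report nearly the same stretch of the transcript. No annotation of this build was used here, so exon numbers and untranslated regions were not assigned.

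All 14 probes were well above background in both channels on all 22 arrays, none was saturated, and all 14 passed the filter on dim probes. This held although fewer probes of the whole array were above background in Cy5 on the arrays of patients (medians of 62.6% before and 61.7% after ASIT) than on those of ctrl dogs (87.8%). The Cy3 channel, which carries the same reference RNA on all arrays, differed in the same direction (58% before, 56.8% after and 81.6% in ctrl). The 8 ctrl arrays filled 2 slides that were scanned on the first day, and all arrays of patients were on the other 4 slides and scanned on 3 later days. For each comparison with ctrl, group, slide and scan day therefore cannot be told apart. Among the slides of patients, slide 5 held 3 arrays, all before ASIT. Slide 6, the only slide scanned on day 4, held 4 arrays, all after ASIT. Only slides 3 and 4 held arrays from both before and after ASIT. The comparison of patients before and after ASIT is therefore also partly tied to slide and scan day. Precision is limited by how many arrays there are.

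The brightness of the Cy5 spots is given as a description of the probes and not as an order of the genes in blood. Of the brightest probes of each gene, that of JAK1 came first, with a median processed signal of 16302 intensity units over the 22 arrays, brighter than 97.7% of the transcript probes on an array. STAT5B followed at 5033 (94.2%), STAT3 at 2013 (88.8%), JAK2 at 1287 (84.8%), STAT2 at 541 (74.3%) and STAT6 at 155 (52.4%). The 6 probes stood in this order on each of the 22 arrays. Over all arrays, the ranges of brightness rank overlapped between STAT3 (85.5% to 92%) and JAK2 (79.6% to 87.8%) and between JAK2 and STAT2 (68.7% to 84.5%), and did not overlap between the other neighbours.

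The brightness of a probe also depends on its sequence and position, and is not an amount of RNA that can be compared between genes. The probes of a single gene show how far this goes. The median signal of the 5 JAK1 probes ran from 16302 down to 337, and the dimmest JAK1 probe (67.4%) ranked below STAT2 and below the dimmer STAT5B probe (77.1%). Among the 4 STAT3 probes the signal ran from 2013 to 216. The place of STAT6 at the end rested on its only probe.

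**Figure D1:**
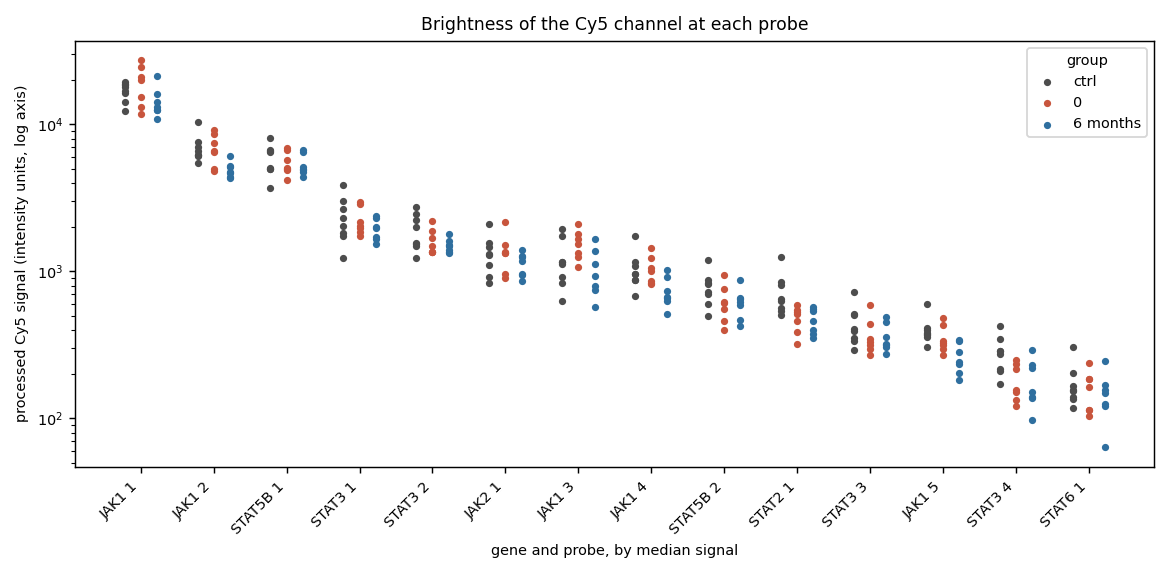
Processed Cy5 signal (intensity units, log axis) of the 14 probes, ordered by their median, with a point for each array coloured by group. The probes of JAK1 and of STAT3 are spread over much of the axis, and the 3 groups overlap at each probe.

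None of the 14 probes was called in any comparison by limma's moderated test at a Benjamini-Hochberg adjusted p under 0.05. Over all 38290 probes tested, the test called 16 in 0 vs ctrl (0.0418%) and 0 in 6 months vs ctrl (0%), 0 in 0 vs 6 months (0%) and 0 in the F-test over the 3 groups (0%). The count of 16 moved with single arrays. It was 440 without dog 1 before ASIT, 135 without dog 2 before and 92 without dog 3 after ASIT, and 0 to 10 without any 1 of the ctrl dogs, of dogs 3 to 7 before ASIT or of dog 5 after ASIT, and it was 0 with slide or scan day as a random block. In 0 vs 6 months 103 probes were called without dog 1 before ASIT, 19 without dog 2 before and 94 without dog 3 after ASIT, and no member was among the probes called in any of these fits. At an unadjusted p under 0.05 it passed 1 member probe in 0 vs ctrl (STAT2) where 11.7% of all probes passed, 2 in 6 months vs ctrl (JAK1 probes 4 and 5) where 7.20% passed, 0 in 0 vs 6 months where 5.96% passed, and 1 in the F-test (STAT2) where 9.70% passed. With 14 probes, 1 probe is 7.14% of the members and 2 probes are 14.3%, so that these counts lie near the shares of the whole array. The 2 comparisons with ctrl share the ctrl arrays, and all 3 comparisons share arrays pairwise. As these are bulk blood samples, fewer cells of a type and less RNA per cell cannot be told apart in any of the values below.

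**Figure D2:**
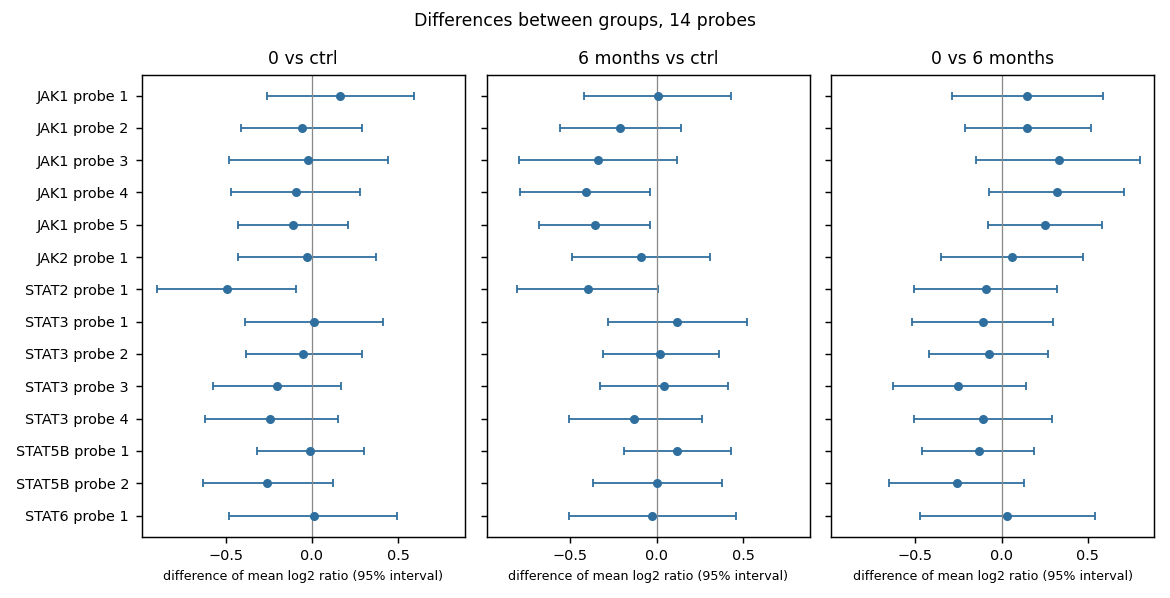
Difference of the mean log2 ratio between groups (first named minus second) for the 14 probes, with 95% intervals from limma. The intervals of STAT2 in 0 vs ctrl and of JAK1 probes 4 and 5 in 6 months vs ctrl lie below 0, and those of the other probes and comparisons include 0.

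STAT2, a factor that answers type I interferons, was the member with the largest difference between patients before ASIT and healthy dogs. After ASIT JAK1 probe 4 differed as much (-0.41, against -0.40 at STAT2). The log2 ratio of STAT2 ran from -0.41 to 1.13 with a median of 0.28 in the 8 ctrl dogs, from -0.76 to 0.22 with a median of -0.40 in the 7 dogs before ASIT, and from -0.37 to 0.02 with a median of -0.16 in the same dogs after ASIT. The groups overlapped, since 3 ctrl dogs lay below 0 among the patients, but all 7 dogs lay below the ctrl median both before and after ASIT. The mean was lower than in ctrl by 0.49 before ASIT (difference -0.49 ± 0.20 SE, 95% interval -0.90 to -0.09), which was 0.71 times the ctrl level. The adjusted p from limma was 0.298, and a 2-sided exact permutation test of this probe alone gave p = 0.0488.

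After 6 months the STAT2 difference from ctrl was -0.40 ± 0.20 (SE), with a 95% interval of -0.81 to 0.01, a limma adjusted p of 0.681 and an exact permutation p of 0.0482. Before and after ASIT, STAT2 differed by -0.09 ± 0.20 (SE), and 3 of the 7 dogs were higher before therapy (paired exact permutation p = 0.594). The dogs were less spread after ASIT (SD 0.14, n = 7) than before (SD 0.38, n = 7) and than the ctrl dogs (SD 0.48, n = 8). No test of these spreads was made. Ctrl dog 7, at 1.13, was the highest of all samples. Without it the STAT2 difference was -0.37 in 0 vs ctrl and -0.27 in 6 months vs ctrl, with unadjusted limma p of 0.0507 and 0.139. With normexp background correction and loess the differences were -0.29 and -0.26, and neither exact p was under 0.05 with that processing or with the series matrix.

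STAT2 acts with IRF9 at the promoters of interferon-stimulated genes, and the values of IRF9 are given beside it. The 2 IRF9 probes disagreed. One lay at -0.44 ± 0.18 (SE) in 0 vs ctrl and at -0.30 in 6 months vs ctrl, and the other at 0.00 and 0.06, with no adjusted p below 0.324. Among the targets, chosen after their values were seen, IFIT1 lay at -0.33 and -0.34, the brighter MX1 probe at -0.65 and -0.61, the other MX1 probe at -0.74 and -0.95, ISG15 at 0.06 and 0.29, and the 2 OAS1 probes at -0.02 and 0.13 and at 0.16 and 0.43, each before and then after ASIT against ctrl. The SD of the brighter MX1 probe among the 8 ctrl dogs was 1.62, above these differences. The other MX1 probe was above background on 5 of the 7 arrays both before and after ASIT and on all 8 ctrl arrays. The first OAS1 probe was above background on 6 of the 7 arrays before and 5 of the 7 after ASIT, and on 7 of the 8 ctrl arrays.

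JAK1, a kinase of many families of cytokine receptors, gave different values at its different probes. Probe 1, the brightest, ran from -0.62 to 0.33 (median -0.06) in ctrl dogs, from -0.99 to 0.65 (median 0.08) before ASIT and from -0.60 to 0.43 (median -0.17) after ASIT. The groups overlapped widely, and patient 2 held the lowest value at both times. Against ctrl, probe 1 differed by 0.16 ± 0.21 (SE) before and by 0.01 ± 0.21 after ASIT, and the difference of 0 vs 6 months was 0.15 ± 0.21, with limma adjusted p of 0.815, 0.997 and 0.934. In 0 vs ctrl the difference was 0.33 without dog 2 before ASIT and 0.06 without dog 4 before ASIT.

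The other 4 JAK1 probes, whose targets are all split in the genome, were lower in mean after ASIT than in ctrl, with differences of -0.21, -0.34, -0.41 and -0.36 in probes 2 to 5. At probe 3 the difference was -0.19 without the array of dog 2 after ASIT and -0.17 with normexp background correction and loess, and at probe 2 it was -0.14 without ctrl dog 2. Probe 4 ran from -0.42 to 0.77 (median 0.05) in ctrl dogs, from -0.46 to 0.50 (median -0.04) before ASIT and from -0.77 to 0.10 (median -0.31) after ASIT. After ASIT 6 of the 7 dogs were below 0, dog 4 being the exception, and the groups still overlapped. The difference from ctrl was -0.41 ± 0.18 (SE), 0.751 times the ctrl level, with a limma adjusted p of 0.681 and an exact permutation p of 0.025.

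Probe 5 of JAK1 ran from -0.14 to 0.49 (median 0.08) in ctrl dogs, from -0.34 to 0.50 (median -0.12) before ASIT and from -0.70 to 0.19 (median -0.21) after ASIT. Its difference between 6 months and ctrl was -0.36 ± 0.16 (SE), with a limma adjusted p of 0.681 and an exact permutation p of 0.0112. As at probe 4, dog 2 was the lowest and dog 4 the highest sample after ASIT, and ctrl dog 2 was the highest ctrl sample. Without ctrl dog 2 the differences were -0.32 at probe 4 and -0.31 at probe 5 (unadjusted limma p of 0.0818 and 0.0611), and without the array of dog 2 after ASIT they were -0.33 and -0.29 (0.0838 and 0.0774). Over all 22 arrays left out in turn, the unadjusted p stayed under 0.05 in 17 fits at probe 4 and in 18 at probe 5. Of these 22 fits, the 7 without an array before ASIT change only the estimate of the spread and cannot move the difference from ctrl. With normexp background correction and loess the differences were -0.25 and -0.15 (0.0565 and 0.0957). The unadjusted p was 0.0656 and 0.0577 with slide, and 0.103 and 0.0961 with scan day, as a random block. Before ASIT, probes 2 to 5 of JAK1 differed from ctrl by -0.11 to -0.02.

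All 5 JAK1 probes were higher in mean before than after ASIT, by 0.15 to 0.33, and none of these differences passed the test. When 1 array was left out, the difference ran from 0.05 (without dog 4 before ASIT) to 0.33 (without dog 2 before) at probe 1, from 0.06 (without dog 7 before) to 0.27 (without dog 2 before) at probe 2, and from 0.17 (without dog 2 after) to 0.41 (without dog 4 after) at probe 3. Probes 4 and 5 kept to ranges of 0.24 to 0.40 and 0.17 to 0.32. Probe 4 differed by 0.32 ± 0.19 (SE, limma adjusted p = 0.916), and it was higher before therapy in 6 of the 7 dogs (paired exact permutation p = 0.0938). Among the 3 dogs whose arrays before and after ASIT shared a slide, the difference of probe 4 was 0.42, and it was 0.31 with slide as a term in the fit. Probe 1 gave -0.10 among the same 3 dogs, the opposite direction to its value over all 7 dogs, and 0.06 with slide as a term. Probes 2, 3 and 5 gave 0.06, 0.52 and 0.40 among these dogs and 0.15, 0.44 and 0.28 with slide as a term. With normexp background correction and loess, probes 1 to 5 gave 0.17, 0.10, 0.20, 0.22 and 0.11.

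Markers of lymphocytes had mostly lower means after ASIT than in ctrl, although no marker probe was called. JAK1 probes 2 to 5 were also lower in this comparison, whereas JAK1 probe 1 differed by 0.01. Of the 12 T cell probes, 10 had a lower mean after ASIT than in ctrl, with a median difference of -0.29 against -0.04 over all probes tested. The mean log2 ratio of this list ran from -0.33 to 0.37 in ctrl dogs, from -0.58 to 0.50 before ASIT and from -0.45 to 0.11 after ASIT. Of the 7 B cell probes, 5 were lower (median -0.26), with list means of -0.49 to 0.19 in ctrl dogs, -0.72 to 0.54 before and -0.92 to 0.27 after ASIT. Of the 5 cytotoxic cell probes, all 5 were lower (median -0.30), and of the 18 neutrophil probes 12 were higher (median 0.05, list means of -0.23 to 0.54 in ctrl dogs and of 0.15 to 0.91 after ASIT). Every tested probe of these lists was above background on at least 1 array of each group. Their part in the JAK1 values was not tested. In 0 vs ctrl the T cell list had a median of 0.01. Between the samplings, where the JAK1 means were higher before ASIT, 10 of the 12 T cell probes (median difference 0.25), 6 of the 7 B cell probes (0.23) and all 5 cytotoxic cell probes (0.53) were also higher before ASIT, against a median of -0.01 over all probes tested. Lower before ASIT were 14 of the 18 neutrophil probes (-0.08), 8 of the 11 monocyte probes (-0.20), 5 of the 6 erythroid probes (-0.30), all 4 platelet probes (-0.15) and 1 of the 2 eosinophil probes.

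**Figure D3:**
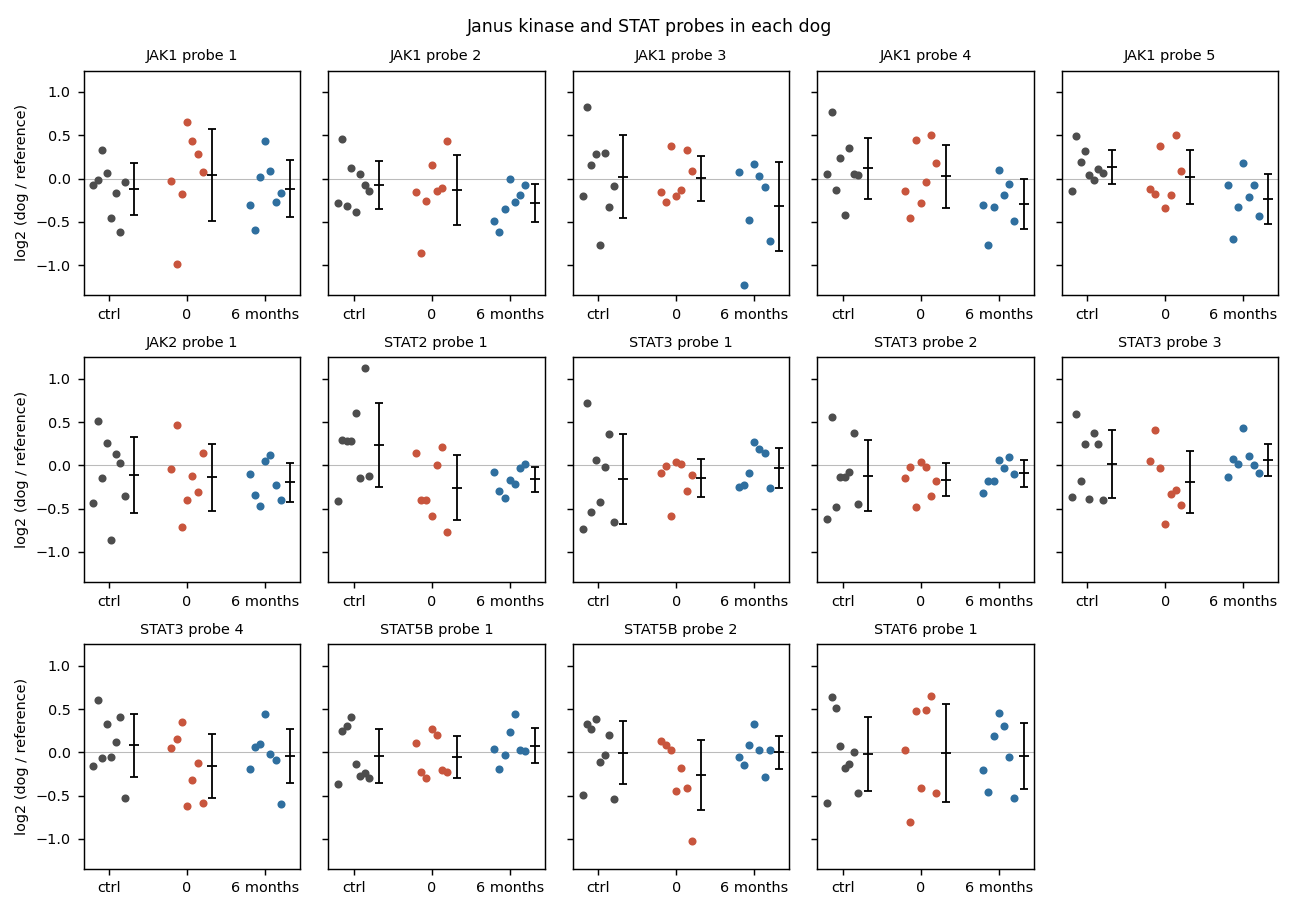
Log2 ratio of dog to common reference for the 14 probes, with a point for each array and the mean ± SD beside each group. Each of the 3 groups overlaps the others in all panels; STAT2 in both patient groups and JAK1 probes 2 to 5 after ASIT have means below those of ctrl dogs.

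JAK2, the kinase of the receptors of erythropoietin, growth hormone and several haematopoietic cytokines, had nearly the same mean in the 3 groups. Its log2 ratio ran from -0.86 to 0.51 (median -0.06) in ctrl dogs, from -0.71 to 0.47 (median -0.12) before ASIT and from -0.47 to 0.12 (median -0.22) after ASIT. The values after ASIT lay wholly within the range of the ctrl dogs. The differences from ctrl were -0.03 ± 0.19 (SE) before and -0.09 ± 0.19 after ASIT, and 0 vs 6 months gave 0.06 ± 0.20, with limma adjusted p of 0.972, 0.932 and 0.968. The last was 0.23 with slide as a term in the fit and 0.21 among the 3 dogs on shared slides. The 95% interval of 0 vs ctrl, from -0.43 to 0.37, still leaves room for differences of that size.

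STAT3, which transmits interleukin 6 and interleukin 10 signals, did not pass the test at any of its 4 probes. Probe 1 ran from -0.73 to 0.72 (median -0.22) in ctrl dogs, from -0.59 to 0.04 (median -0.08) before ASIT and from -0.26 to 0.26 (median -0.09) after ASIT. Both patient groups fell inside the range of the ctrl dogs, whose SD of 0.52 was above those of 0.22 and 0.23 in the patients. The 4 probes differed by -0.24 to 0.01 in 0 vs ctrl and by -0.13 to 0.12 in 6 months vs ctrl. In 0 vs 6 months all 4 had a lower mean before ASIT, with differences of -0.25 to -0.07 and limma adjusted p from 0.934 to 0.956. With slide as a term in the fit the 4 probes turned to 0.04, 0.09, 0.01 and 0.01, and the 3 dogs on shared slides gave -0.03, 0.02, 0.16 and 0.20. The difference of -0.25 at probe 3 rested on values of -0.67 to 0.41 before and -0.13 to 0.43 after ASIT.

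STAT5B, a mediator of interleukin 2 and growth hormone signals, was likewise not called. Probe 1 ran from -0.37 to 0.41 (median -0.19) in ctrl dogs, from -0.30 to 0.27 (median -0.21) before ASIT and from -0.19 to 0.44 (median 0.03) after ASIT. The groups overlapped, and 5 of the 7 dogs had the higher value after ASIT, with single differences of -0.26 to 0.07 (mean difference -0.13 ± 0.16 SE, limma adjusted p = 0.934, paired exact permutation p = 0.0938). Probe 2 gave -0.26 ± 0.19 (SE) in the same comparison, and -0.26 ± 0.18 in 0 vs ctrl, with limma adjusted p of 0.934 and 0.63. Before ASIT, dog 7 lay lowest at this probe, at -1.03, and without that array both differences were -0.13. With slide as a term in the fit, probes 1 and 2 gave 0.02 and 0.01 between the samplings, and among the 3 dogs on shared slides they gave -0.08 and 0.12. STAT5A, the near copy of STAT5B, had 1 probe, which differed from ctrl by 0.05 before and -0.05 after ASIT, with 0.10 for 0 vs 6 months, and was named after its values were seen.

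STAT6, the factor activated by interleukin 4 and interleukin 13, had the smallest difference from ctrl among the single-probe genes and the largest SD of the members before ASIT. Its log2 ratio ran from -0.58 to 0.64 (median -0.07) in ctrl dogs, from -0.81 to 0.65 (median 0.03) before ASIT and from -0.52 to 0.45 (median -0.06) after ASIT. The group means were -0.02, -0.01 and -0.04, with SDs of 0.43, 0.57 and 0.38. The differences were 0.01 ± 0.23 (SE), -0.03 ± 0.23 and 0.03 ± 0.24 in the 3 comparisons, and the 95% interval of 0 vs ctrl was -0.48 to 0.49. From the Cy5 channel alone, after quantile normalization between arrays, the difference in 0 vs ctrl was 0.80. In that setting 8094 of all 38290 probes were called, and before this normalization the median Cy5 signal of STAT6 was 155 in ctrl dogs and 164 before ASIT. Within dogs the change between the 2 samplings ran from -0.87 in dog 4, which was higher after ASIT, to 0.70 in dog 6, which was higher before. At 155 intensity units this was the dimmest of the 14 probes.

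**Figure D4:**
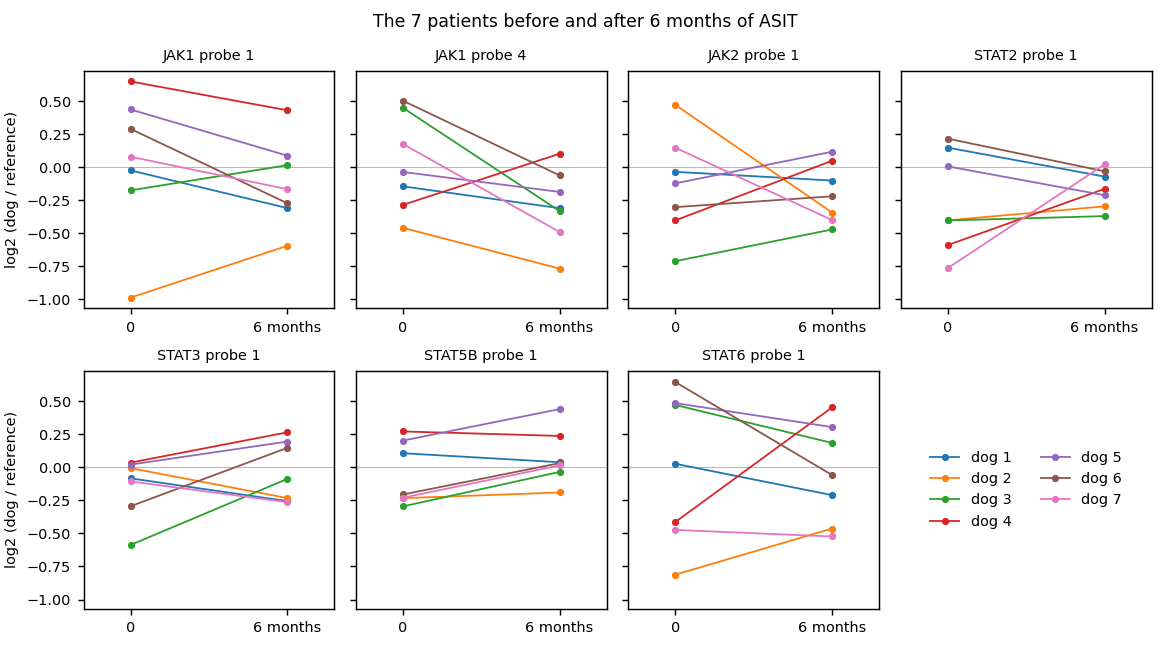
Log2 ratio of the 7 patients before (0) and after 6 months of ASIT, a line for each dog, at the brightest probe of each gene and at JAK1 probe 4. The lines cross at each gene; at JAK1 probe 4, 6 of 7 dogs lie lower after ASIT, and at STAT5B 5 of 7 lie higher.

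Single dogs stood high or low at many probes at once, several of them probes of the same gene. How often a dog is highest or lowest over all probes of the array is not given here. Ctrl dog 2 had the highest value among ctrl dogs at 10 of the 14 probes, which spanned JAK1, JAK2, STAT3 and STAT6. Among the patients after ASIT, dog 4 was highest at 10 of the 14 probes. Dog 2 was lowest at 6 probes after ASIT (all JAK1 probes and STAT5B probe 1) and at 5 before (JAK1 probes 1 to 4 and STAT6). Before ASIT dog 2 was also the highest at JAK2 and at STAT3 probe 3.

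The likeness of the probes was measured by Pearson's r of their deviations from the group means over the 22 arrays, in which 7 dogs appear more than once and all arrays share the reference, and it is given as a description without a test. Over the 17 pairs of probes of the same gene r had a median of 0.54, and over the 74 pairs of different genes a median of 0.32. The overlapping STAT3 probes 1 and 2 had the highest r, 0.94. JAK1 probes 3, 4 and 5 were alike (r of 0.87 between 3 and 4, 0.79 between 3 and 5, and 0.81 between 4 and 5), whereas the brightest JAK1 probe was less like them (0.42, 0.37 and 0.24).

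Between genes, JAK2 and STAT3 probe 1 had an r of 0.71, and STAT3 probe 4 and STAT5B probe 2 had the highest value of any pair of different genes, 0.73. STAT2 had r of 0.02 with JAK2 and from -0.16 to 0.26 with the JAK1 probes. Among 8193 other named genes whose brightest probe was above background on all 22 arrays, STAT2 was most like OAS2, an enzyme induced by interferons (r = 0.829). JAK1 probe 1 was most like EEF1E1 (r = 0.969), JAK2 like ASPH (0.933), STAT3 like KCTD20 (0.92) and STAT5B like REV3L (0.895). Such values are the highest of many. Of the 8193 genes, 27.5% had an r over 0.5 with JAK1 probe 1, and 2.9% had one with STAT2.

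**Figure D5:**
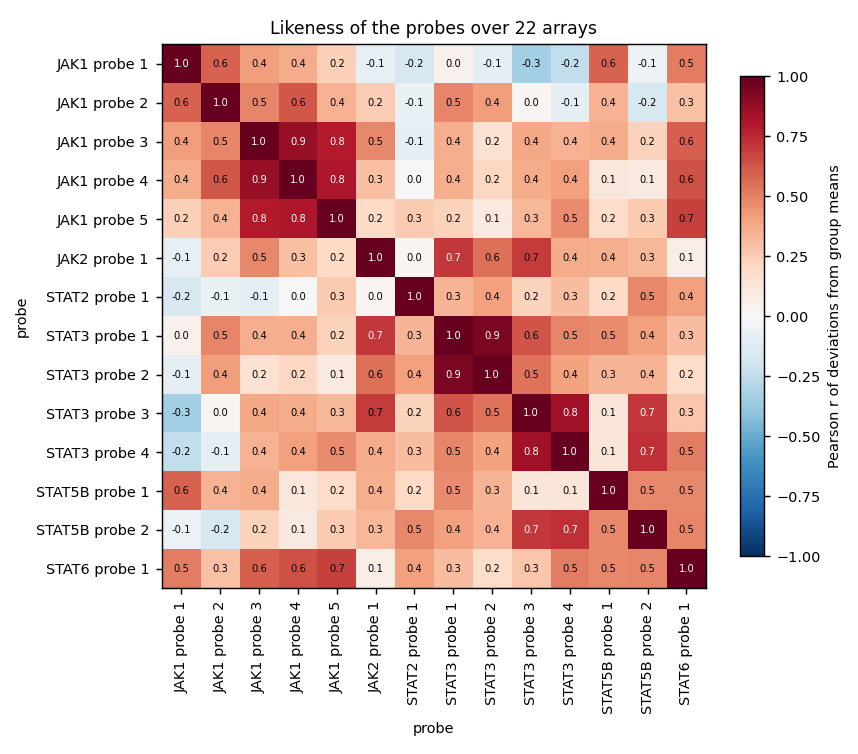
Pearson r between the 14 probes over the 22 arrays, after the mean of each group was taken off. Probes 3 to 5 of JAK1 form a block, the STAT3 probes form 2 pairs, and JAK1 probe 1 and STAT2 stand apart from most other probes.

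The other genes of the pathway were counted in 4 lists, which held 113 genes, 95 of them with a probe. Of their 140 tested probes none was called in any comparison, and at an unadjusted p under 0.05 limma passed 0 higher and 7 lower in 0 vs ctrl, 5 higher and 4 lower in 6 months vs ctrl, and 4 higher and 7 lower in 0 vs 6 months. The shares of 5.00%, 6.43% and 7.86% compare with 11.7%, 7.20% and 5.96% of all probes. These unadjusted counts of 7, 9 and 11 moved with single arrays, to between 6 and 13 (without dog 1 before ASIT), between 5 (without dog 5 after) and 23 (without dog 4 after), and between 6 (without dog 5 or 6 after) and 15 (without dog 2 before). With scan day as a random block they were 1, 1 and 4, with slide as a random block 4, 5 and 4, and in 0 vs 6 months 3 with normexp and loess and 0 with slide as a term in the fit. The counts over all 38290 probes, 4494, 2757 and 2283, moved too. Without the arrays named for the highest pathway counts they were 5304, 4912 and 3771. With scan day as a random block they were 1237, 465 and 1372, and with slide as a random block 2990, 1141 and 1627. In 0 vs 6 months they were 1160 with normexp and loess and 765 with slide as a term. The median differences of the 140 pathway probes were -0.02, -0.08 and -0.01, against -0.02, -0.04 and -0.01 over all probes tested.

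Of the ligands, 22 genes had a probe and 32 probes were tested, and they held the smallest p of 0 vs ctrl. At an unadjusted p under 0.05, 8 of the 32 passed in 0 vs 6 months (25.0%, 2 higher and 6 lower before ASIT, against 5.96% of all probes). With slide as a term in the fit none did, where 765 of all 38290 probes passed. That fit draws the difference only from slides with arrays of both samplings, so it does not decide whether the 25.0% holds. In 0 vs ctrl 4 passed (12.5%, all lower), and after ASIT 3 passed against ctrl (9.38%). IL4, the cytokine of type 2 helper cells, differed by -0.51 ± 0.19 (SE, limma adjusted p = 0.244), and an IL2 probe by -0.67 ± 0.24 (adjusted p = 0.25), which was above background on 1 of the 7 arrays before ASIT. IL13 differed by -0.69 ± 0.25 in 6 months vs ctrl (adjusted p = 0.669) and was above background on 1 of the 7 arrays after ASIT and on 6 of the 8 ctrl arrays. In 0 vs 6 months, IL23A differed by -0.74 ± 0.26 (adjusted p = 0.565) and another IL2 probe by 0.92 ± 0.37 (adjusted p = 0.682), which was above background on 5 of the 7 arrays before and 1 of the 7 after ASIT. None of these passed the test.

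Of the 43 probes of receptor chains, 1 passed at an unadjusted p under 0.05 in each comparison, and IL4R, the chain that carries interleukin 4 and 13 signals to STAT6, differed at its 3 probes by -0.11 to 0.33 in 0 vs ctrl. Of the 29 inhibitor and phosphatase probes, 1 passed in each comparison as well. SOCS2, a STAT5 target that restrains growth hormone signals, differed by -0.84 ± 0.31 in 6 months vs ctrl (limma adjusted p = 0.68), and was above background on 2 of the 7 arrays after ASIT and on all 8 ctrl arrays. SOCS1 differed by 0.02 in 0 vs ctrl and SOCS3 by 0.26 ± 0.21; IL4R, SOCS1 and SOCS3 were named after their values were seen. Of the 36 probes of partners and target genes, STAM, an adaptor that Janus kinases phosphorylate, had the smallest p in both comparisons with the dogs after ASIT. Its difference was 0.44 ± 0.15 in 6 months vs ctrl (adjusted p = 0.645) and -0.47 ± 0.16 in 0 vs 6 months (adjusted p = 0.505), so its mean was highest after ASIT, without a call.

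Of the cell type markers, the smallest p belonged to MMP9 of neutrophils, PPBP of platelets and IL5RA of eosinophils in 0 vs ctrl, with differences of 1.68 ± 0.57, -0.66 ± 0.31 and 0.49 ± 0.25 (SE, limma adjusted p of 0.219, 0.415 and 0.445). In 6 months vs ctrl they were MMP9 (1.63 ± 0.57), ALAS2 of erythroid cells (0.92 ± 0.34) and CD28 of T cells (-0.41 ± 0.17), with adjusted p of 0.658, 0.68 and 0.681. In 0 vs 6 months they were CD2 of T cells (0.48 ± 0.20), another probe of MMP9 (0.63 ± 0.26) and ALAS2 (-0.67 ± 0.35), with adjusted p of 0.686, 0.698 and 0.87. The first MMP9 probe was above background on 3 of the 7 arrays before and 5 of the 7 after ASIT and on all 8 ctrl arrays, the other on 5 of 7 at both times. ALAS2 was above background on 1 of the 7 arrays before and 2 of the 7 after ASIT and on 7 of the 8 ctrl arrays, so that these differences rest in part on signals not well above background. The erythroid list had a median of 0.38 in 0 vs ctrl and of 0.92 in 6 months vs ctrl, the eosinophil list 0.23 and 0.04, the monocyte list -0.12 and -0.05, and the platelet list -0.53 and -0.31. By its labels the material is whole blood, whereas the text of the study writes of peripheral blood nuclear cells. Each tested erythroid and platelet probe was above background on at least 1 array of each group.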

How the data were processed

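Gene expression was measured on 22 two-colour Agilent Canine (V2) 4 × 44 K arrays. The authors extracted the scans with Agilent Feature Extraction (10.7.3.1 per the labels, 10.10.1.1 per the file headers), which subtracted the background and applied Lowess normalization. As deposited, the array files hold, for each spot, its raw and processed intensity, its flags and a log10 ratio (Cy5 over Cy3). The authors also deposited a series matrix of log10 ratios, which was used as an alternative. Its 14 patient columns are identical to the array files, whereas its 8 ctrl columns are not (r of 0.711 to 0.844 with the file of the same array, and at most 0.605 with any other array), and the sources used here do not say how those were made. The ctrl values reported come from the array files. The log10 ratios were converted to log2, control spots and 208 outlier spots were dropped, and replicate spots of a probe were averaged. The 38290 probes whose Cy5 signal passed the software's background flag on 7 or more arrays were tested with limma 3.58.1 in R 4.3.3 in 1 fit of the 3 groups, with Benjamini-Hochberg adjustment over all of them and calls under 0.05. In addition, 2-sided exact permutation tests compared single probes (42 tests, 14 probes in 3 comparisons), with the smallest possible p of 0.000155 for 8 against 7 arrays and 0.000583 for 7 against 7. For 0 vs 6 months a paired exact permutation test flipped signs within dogs, with a smallest p of 0.0156.

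The arrays before and after ASIT come from the same 7 dogs per the labels. The residuals of the arrays of the same dog correlated by -0.036 to 0.555. For dogs 3, 5 and 6 the array before ASIT correlated best with the array after ASIT of another dog. The labels do not tie the dogs to further replicates, so each array is 1 dog. The 14 members and the lists of pathway genes and cell type markers were chosen with earlier results of these data known. Of the lists, the 3 genes with the smallest p in each comparison were named, and for each member the named gene with the highest correlation over the 22 arrays, of which the value for STAT6 is not reported here. Of the 56 marker genes, 5 are also in a pathway list. The alternatives were other normalizations and filters, Cy5 alone after quantile normalization between arrays, the one-way test of the methods with Tukey's test, slide, scan day and dog as blocks, and leaving out each array. The tests were checked on simulated data. Figures were drawn with matplotlib 3.10.9.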

Additional observations from a re-analysis of the deposited data

Results flagged for a closer look

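Among the 42 sets of values (14 probes in 3 groups), 1 sample stood apart by Dixon's test for a single outlying value. It was the array of dog 4 after ASIT at STAT3 probe 3, with a log2 ratio of 0.43 where the other 6 dogs ran up to 0.11. Chance alone flags about 1 in 20 such sets.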

How the results depend on the processing

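None of the 14 member probes was called in any comparison under any of the alternatives, and no pathway probe was except with the Cy5 channel alone, where 24 of the 140 were called in 0 vs ctrl and 18 in 6 months vs ctrl, with 8094 and 5948 of all 38290 probes called. The paired fit with the dog as a block (replicate block) called 0 member and 0 pathway probes in 0 vs 6 months. Of the 18 exact tests of the brightest probes, 2 had p under 0.05 (both STAT2), against 0 with normexp and loess, 0 with the series matrix (of which only the ctrl columns differ from the array files, with STAT2 differences of -0.50 and -0.41), 1 with Cy5 alone, and 0 to 2 when 1 array was left out. STAT2 kept its lower mean in patients than in ctrl under the alternatives run, with differences of -0.59 to -0.27 when 1 array was left out and of -0.50 to -0.26 under other processing. With scan day as a random block its unadjusted p rose to 0.119 and 0.146.

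Differences near 0 changed sign. For JAK1 in 0 vs ctrl (0.16), probes 2 to 5 gave -0.06, -0.02, -0.09 and -0.11, and in 6 months vs ctrl (0.01) they gave -0.21, -0.34, -0.41 and -0.36, normexp and loess -0.05, and Cy5 alone -0.34. In 0 vs 6 months the 3 dogs on shared slides gave -0.10 for JAK1 and 0.03 for STAT2. JAK2 gave 0.03 in 0 vs ctrl both with Cy5 alone and with scan day as a block, and -0.03 in 0 vs 6 months with normexp and loess. STAT3 in 0 vs ctrl gave -0.02 with normexp and loess and with the series matrix, -0.06 with Cy5 alone, and -0.05, -0.20 and -0.24 at probes 2 to 4. In 6 months vs ctrl it gave -0.13 with Cy5 alone and at probe 4, and in 0 vs 6 months 0.07 with Cy5 alone and 0.04 with slide as a fixed block. STAT5B in 0 vs ctrl gave 0.00 with slide and 0.01 with scan day as a random block, -0.11 in 6 months vs ctrl with Cy5 alone, and 0.02 in 0 vs 6 months with slide as a fixed block. STAT6 gave -0.03 in 0 vs ctrl and 0.00 in 0 vs 6 months with scan day as a block, 0.00, 0.06 and 0.62 in 6 months vs ctrl with normexp and loess, the series matrix and Cy5 alone (with 0.80 in 0 vs ctrl with Cy5 alone, unadjusted p = 0.0187), and -0.10 in 0 vs 6 months with slide as a fixed block.

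When 1 array was left out, the ranges that crossed 0 were -0.08 to 0.09 for JAK1 in 6 months vs ctrl, -0.14 to 0.07 in 0 vs ctrl and -0.04 to 0.16 in 0 vs 6 months for JAK2, -0.07 to 0.13 for STAT3 and -0.06 to 0.05 for STAT5B in 0 vs ctrl, and -0.10 to 0.14, -0.11 to 0.07 and -0.07 to 0.17 for STAT6 in 0 vs ctrl, 6 months vs ctrl and 0 vs 6 months. The other 540 gene values kept their direction. The cause of these changes was not tested.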
